A study of Mus musculus with 12 samples.

Results

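Genes of the erythroid lineage were followed across 12 bulk RNA sequencing libraries of Treg cells sorted from mouse bone marrow. The 9 genes are Gata1, Klf1, Epor, Tfrc, Alas2, Car1, Car2, Slc4a1 and Ermap. They were chosen by name with earlier results of these data known. Counts of them set beside the share of all genes are therefore descriptions. All 9 were found among the 14259 genes of the deposited count table, and all 9 were among the 13782 genes that passed the filter on low counts. The 4 groups hold 3 libraries each, taken on day 14 from C57BL/6 mice, and are called no tumor WT, tumor WT, tumor ST2-KO and tumor Tbet-KO. Per the methods, every recipient was lethally irradiated and given T cell-depleted marrow, Foxp3- T cells and Treg cells, and the genotype in a group's name is that of the Treg cells. Mice of the 3 tumor groups also received leukemic cells that carry the MLL-AF9 fusion and eGFP. ST2, the product of Il1rl1, is the receptor for interleukin-33, and Tbet, the product of Tbx21, is a transcription factor of type 1 T cell responses.

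The sort took CD4+CD25+ cells that were eGFP+ (a Foxp3 reporter) for WT and ST2-KO Treg cells, or CD127- for Tbet-KO Treg cells, so the gate and the Tbet-KO genotype cannot be told apart. The leukemic cells are eGFP+ as well. No label ties a library to its own animal, and p-values then measure only the spread between these libraries. Levels are given as CPM, counts relative to the TMM-scaled library size. Il1rl1 stood at 86.6 to 92.7 CPM in the libraries labelled ST2-KO, not below the 74.8 to 79.02 CPM of no tumor WT, and at 123 to 136 CPM in tumor WT. Tbx21 stood at 13.8 to 16.1 CPM in the libraries labelled Tbet-KO, against 36.2 to 41.7 in tumor WT and 12.2 to 17.5 in no tumor WT. In the names of the deposited count columns, the 3 libraries labelled ST2-KO also carry the same sample numbers as the 3 tumor WT libraries, which no other libraries share, and the sources used here do not say why. ST2-KO and Tbet-KO therefore name what the libraries are labelled, here and throughout. Total counts ran from 13272943 to 18042521 per library.

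Markers of several cell types were counted in every library. No gene of the T cell, Treg cell, B cell, granulocyte or monocyte and macrophage lists was at 0 in any library. Summed over each list, the 12 T cell genes gave 619 to 646, 1629 to 1670.5, 823 to 853 and 1772 to 1808 CPM in no tumor WT, tumor WT, ST2-KO and Tbet-KO, and the 14 granulocyte genes 14700 to 14962, 19781 to 20086, 12830 to 13436 and 16040 to 16214 CPM. The 9 Treg cell genes, Foxp3 among them, summed to 758, 1643, 1172 and 1339 CPM by group mean, and the 10 B cell genes to 2984, 848, 2126 and 93.1 CPM. The part of these lists in the erythroid values below was not tested. In bulk libraries, fewer erythroid cells and less erythroid RNA per cell cannot be told apart.

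Red cells form in the marrow from progenitors that exchange Gata2 for Gata1, the zinc finger factor which, with Klf1, switches on the red cell genes. Erythropoietin acts through Epor to keep early precursors alive. The precursors import transferrin-bound iron through Tfrc, start heme synthesis with Alas2, fill with carbonic anhydrase and build a membrane around the anion exchanger Slc4a1 (band 3). Ermap is an erythroid membrane protein of the immunoglobulin superfamily, which in humans carries the Scianna blood group. Tfrc also serves other dividing cells, activated lymphocytes included, and Car2 is made outside the red cell lineage as well.

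Promoters were looked up in RefSeq (GRCm38.p6), as 250 bases before to 50 after each start site, and were matched for 6 of the 9 genes. Letters that GATA factors are known to bind, TGATAA with its variant TGATAG and also AGATAA with its variant AGATAG, were searched on both strands. They occurred in 4 of the 6 genes and in 29.8% of all 32851 promoters, and these windows of Gata1 and Tfrc held none of them. The 4 windows of 60 bases below are shown because they hold a GATA match before the start site. All 9 genes had their lowest mean in Tbet-KO, Gata1 and Tfrc included, so the match does not set these 4 apart. Capitals mark the GATA match and the letters CACCC, a core bound by Klf1, which are printed as GGGTG where they lie on the other strand.
Klf1: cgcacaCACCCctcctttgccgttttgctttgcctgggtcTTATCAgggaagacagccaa
Epor: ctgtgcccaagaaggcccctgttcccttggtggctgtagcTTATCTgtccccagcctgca
Alas2: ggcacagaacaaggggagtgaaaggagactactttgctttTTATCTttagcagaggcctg
Ermap: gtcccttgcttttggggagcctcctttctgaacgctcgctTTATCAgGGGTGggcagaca
They lie at chr8:84901862-84901921 (plus strand), chr9:21963611-21963670 (minus), chrX:150547291-150547350 (plus) and chr4:119190043-119190102 (minus). In all 4 the GATA letters read on the strand opposite to the gene and begin 80, 54, 86 and 67 bases before the start site, in the order shown. CACCC was present in 57.5% of all promoters and in the matched promoters of all 6 genes. The windows shown hold it for Klf1 and Ermap, while the copies of Epor and Alas2 lie outside the windows. A match describes the letters and is not a measured binding site.

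Tfrc and Alas2 messages carry iron-responsive elements, hairpins bound by the iron regulatory proteins, and these are shown because the ratio of the 2 messages set tumor WT apart. The search took a C, 5 bases, the loop CAGTGN and 5 bases pairing with the first 5 (G-T pairs allowed) in annotated UTRs on GRCm38. It found 4 elements in the 3′ UTR of Tfrc, 1 in the 5′ UTR of Alas2, none in the other 7 genes, and at least 1 in 0.709% of 21875 protein-coding genes. Capitals mark the bulged C and the loop.
Tfrc element A: aattatCggaagCAGTGCcttccataat
Tfrc element B: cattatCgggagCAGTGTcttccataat
Tfrc element C: ctatatCggagaCAGTGAtctccatatg
Tfrc element D: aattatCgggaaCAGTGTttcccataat
Alas2 element: ttggttCgtcctCAGTGCagggcaacag
The Tfrc elements begin at 32631219, 32631598, 32631663 and 32631710 on the plus strand of chromosome 16, and the Alas2 element lies at chrX:150547458-150547485. When iron is scarce, the regulatory proteins are known to block translation at a 5′ element and to stabilize a message at 3′ elements. Iron, protein and translation were not measured in these libraries.

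All 9 genes had their lowest mean in Tbet-KO, and for 8 of them every Tbet-KO library lay below all 9 other libraries. Car1 was the exception. Of all tested genes, 30.6% had their lowest mean in Tbet-KO and 14.1% had every Tbet-KO library below all others. The 9 genes together summed to 1585 ± 10.6 CPM for no tumor WT, 1487 ± 15 for tumor WT, 990.3 ± 15.05 for ST2-KO and 417 ± 1.47 for Tbet-KO (SD, n = 3 each). Tfrc, which other dividing cells use too, averaged 586 CPM in no tumor WT and 365 in tumor WT. That fall exceeded the difference between the sums of these groups, so the order of no tumor WT and tumor WT rests on Tfrc. By mean CPM with TMM, Gata1, Klf1, Epor and Ermap ran downward from no tumor WT through tumor WT and ST2-KO to Tbet-KO. None of these genes passed the test from no tumor WT to tumor WT, nor did Epor from tumor WT to ST2-KO. Alas2, Car1, Car2 and Slc4a1 had tumor WT above no tumor WT, though Car2 did not pass, and Tfrc had ST2-KO above tumor WT.

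**Figure D1:**
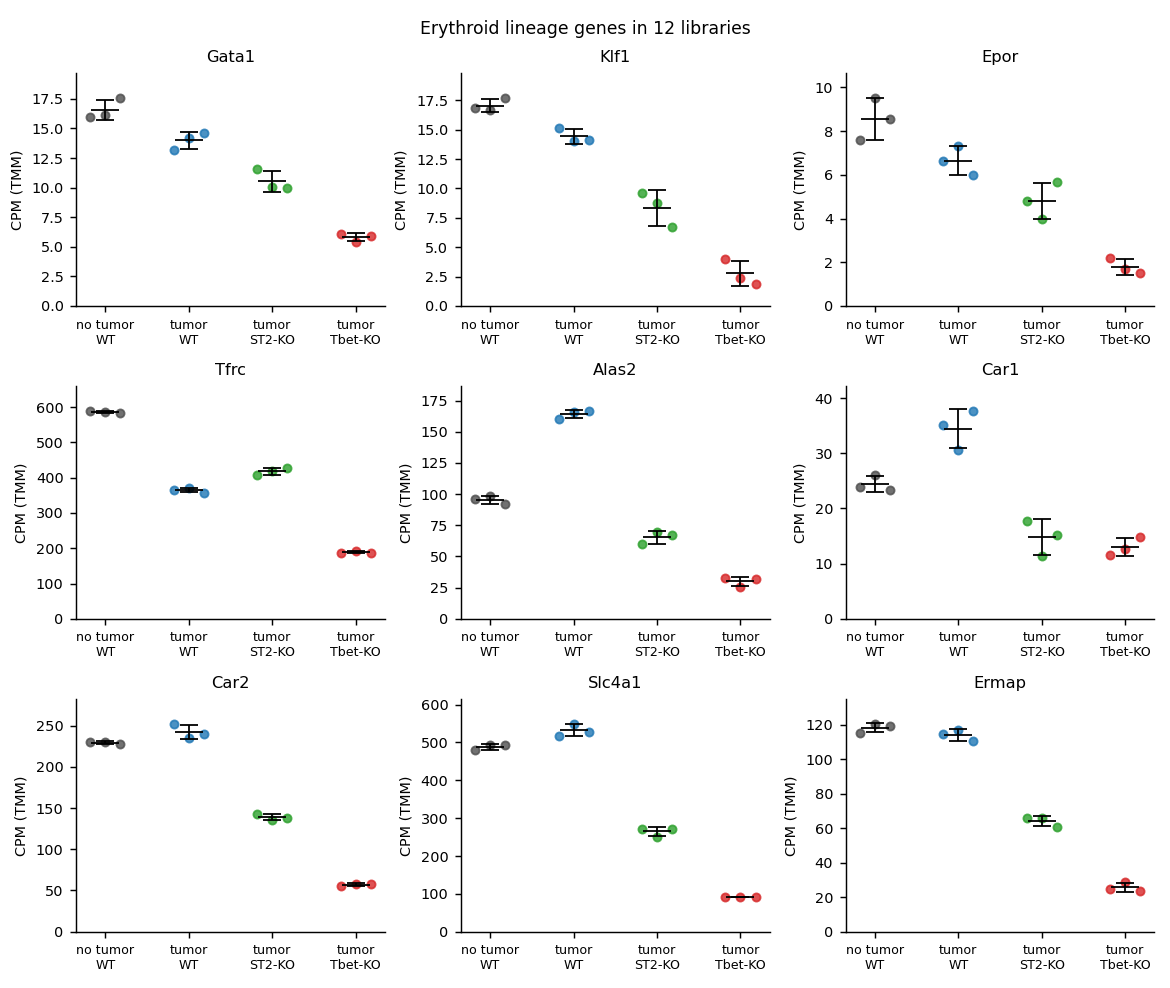
Each panel plots 1 gene, with TMM-scaled CPM on the y axis from 0 and the 4 groups on the x axis; points are the 3 libraries, and bars give the mean and SD. The Tbet-KO libraries sit lowest in every panel except Car1, where they overlap ST2-KO, and Tfrc is the panel with ST2-KO above tumor WT.

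Gata1 (chromosome X, 7959260 to 7976663, GRCm38.p6 as for the other positions) read 15.9, 16.2 and 17.6 CPM for no tumor WT, 13.2, 14.2 and 14.6 for tumor WT, 11.6, 10.04 and 9.99 for ST2-KO and 6.06, 5.43 and 5.94 for Tbet-KO. The 4 groups did not overlap. Klf1 (chromosome 8, 84901982 to 84905291), the Kruppel-like factor of red cell genes, read 16.8, 16.7 and 17.7 CPM for no tumor WT, 15.1, 14.02 and 14.1 for tumor WT, 9.59, 8.74 and 6.68 for ST2-KO and 3.999, 2.42 and 1.91 for Tbet-KO. Its Tbet-KO values rest on 64, 41 and 27 reads, with a coefficient of variation of 39.2%. Within a library, Klf1 relative to Gata1 was 1.03 ± 0.0237 for no tumor WT, 1.03 ± 0.0986 for tumor WT, 0.789 ± 0.106 for ST2-KO and 0.476 ± 0.171 for Tbet-KO (SD, n = 3).

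The ratio of Gata1 to Gata2, the pair exchanged as progenitors commit, ran from 1.36 to 1.96 for no tumor WT, 1.16 to 1.29 for tumor WT, 1.52 to 1.65 for ST2-KO and 0.335 to 0.445 for Tbet-KO. The ratio of CPM, not corrected for gene length, was lower in the 3 Tbet-KO libraries than in the other 9. The stem and progenitor cell list holds Gata2 too. Of its 12 genes, 9 were higher (all genes 18.1%) and 2 lower (20.6%) in Tbet-KO than in tumor WT with TMM. The part of such cells in the ratio was not tested. Gata2 was chosen after its values were seen. Gata2 averaged 9.77, 11.5, 6.66 and 15.6 CPM over the 4 groups, and its call in Tbet-KO against tumor WT (log2 0.44, adjusted p = 0.015) was lost without tumor WT library 2 or Tbet-KO library 2 or 3, with adjusted p from 0.060 to 0.078, and on the T cell scale (0.091).

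Epor (chromosome 9, 21958897 to 21963576) had the lowest level per length of the 9, 4.67 CPM per kb for no tumor WT and 0.981 for Tbet-KO. It read 7.57, 9.51 and 8.55 CPM for no tumor WT, 6.63, 7.30 and 5.97 for tumor WT, 4.79, 3.99 and 5.66 for ST2-KO and 2.19, 1.71 and 1.49 for Tbet-KO. Neighbouring groups did not overlap, yet the first 2 steps of this order did not pass the test (adjusted p = 0.13 and 0.082).

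Tfrc (chromosome 16, 32608896 to 32632794) read 589, 586 and 583 CPM for no tumor WT, 366, 370.1 and 358 for tumor WT, 409, 419 and 427 for ST2-KO and 188, 192 and 186 for Tbet-KO. The spread within each group, 0.511% to 2.22%, was small beside the steps between groups. The summed B cell list had the same order of groups as Tfrc, and its part in the Tfrc values was not tested.

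Alas2 (chromosome X, 150547417 to 150570622), the erythroid form of the enzyme that begins heme synthesis, read 96.3, 98.3 and 91.7 CPM for no tumor WT, 161, 166 and 167 for tumor WT, 59.7, 69.5 and 66.9 for ST2-KO and 32.9, 25.8 and 31.6 for Tbet-KO. The tumor WT libraries stood above all others. Car1 (chromosome 3, 14766214 to 14808365), a cytosolic carbonic anhydrase, read 23.96, 26.04 and 23.3 CPM for no tumor WT, 35.1, 30.6 and 37.7 for tumor WT, 17.8, 11.3 and 15.3 for ST2-KO and 11.5, 12.7 and 14.9 for Tbet-KO, and its last 2 groups overlapped. Car2 (chromosome 3, 14886269 to 14900770), the fast cytosolic carbonic anhydrase, had the highest level per length of the 9 in both WT groups, 128 and 135 CPM per kb. Its CPM was 230.4, 230.2 and 228 for no tumor WT, 252, 235 and 239.5 for tumor WT, 143, 136 and 139 for ST2-KO and 54.9, 57.8 and 57.7 for Tbet-KO.

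Slc4a1 (chromosome 11, 102348820 to 102365281), which exchanges anions and anchors the membrane skeleton, read 480.1, 492 and 494 CPM for no tumor WT, 518, 549 and 529 for tumor WT, 272, 250.1 and 273 for ST2-KO and 92.2, 91.6 and 92.8 for Tbet-KO. The 3 Tbet-KO libraries were within a coefficient of variation of 0.652%. Ermap (chromosome 4, 119175457 to 119190013) read 115, 121 and 119 CPM for no tumor WT and 115, 117 and 110.5 for tumor WT, where the groups overlapped, then 66.1, 65.9 and 60.96 for ST2-KO and 24.99, 28.8 and 23.5 for Tbet-KO. Per length, Slc4a1 stood at 107 and Ermap at 26.03 CPM per kb in no tumor WT.

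Tumor WT was compared with no tumor WT to ask what differed when leukemia was present, and the 9 genes split. Alas2 rose 1.72-fold (log2 0.78, SE 0.0569, adjusted p = 1.6e-21), Car1 1.41-fold (log2 0.49, SE 0.114, adjusted p = 0.00012) and Slc4a1 1.09-fold (log2 0.12, SE 0.0312, adjusted p = 0.00054). Tfrc fell to 62.2% (log2 -0.68, SE 0.0295, adjusted p = 2.2e-35). Gata1 (log2 -0.24), Klf1 (-0.24), Epor (-0.37), Car2 (0.08) and Ermap (-0.06) did not pass. By edgeR's quasi-likelihood test 3 of the 9 were higher, where 29.0% of all tested genes were, and 1 was lower, where 29.4% were. None of the 9 also had a log2 change beyond 1, against 8.85% of all genes higher and 4.96% lower, and 8 of 9 did not overlap between the groups, against 65.7%. The median was -0.06, and 0.00 over all genes. When libraries were scaled to the 12 T cell genes instead, all 9 were lower, as were 86.7% of all genes, with Alas2, Car1, Car2 and Slc4a1 turned to log2 -0.60, -0.89, -1.30 and -1.26, and the median of all genes moved to -1.38.

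Ratios of CPM within a library do not depend on how libraries are scaled, and, since they are not corrected for gene length, they are compared between groups only. Alas2 relative to Tfrc was 0.163 ± 0.00520 for no tumor WT, 0.451 ± 0.0134 for tumor WT, 0.156 ± 0.00988 for ST2-KO and 0.160 ± 0.0223 for Tbet-KO. Tumor WT stood apart in this ratio, its lowest library at 0.439 and the highest of the other 9 at 0.176. Alas2 as a percentage of Slc4a1 did not set it apart, at 19.5, 30.9, 24.8 and 32.6 in the same order of groups. Tfrc as a percentage of Slc4a1 was 119.9 ± 2.45 for no tumor WT, 68.6 ± 1.77 for tumor WT, 158 ± 8.72 for ST2-KO and 205 ± 4.86 for Tbet-KO, so it was lowest with tumor WT and highest with Tbet-KO. Car1 relative to Car2 was 0.107 ± 0.00570, 0.142 ± 0.0138, 0.106 ± 0.0208 and 0.229 ± 0.0252 in the same order, which put Tbet-KO above the rest. These ratios were chosen with the levels known and carry no test.

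**Figure D2:**
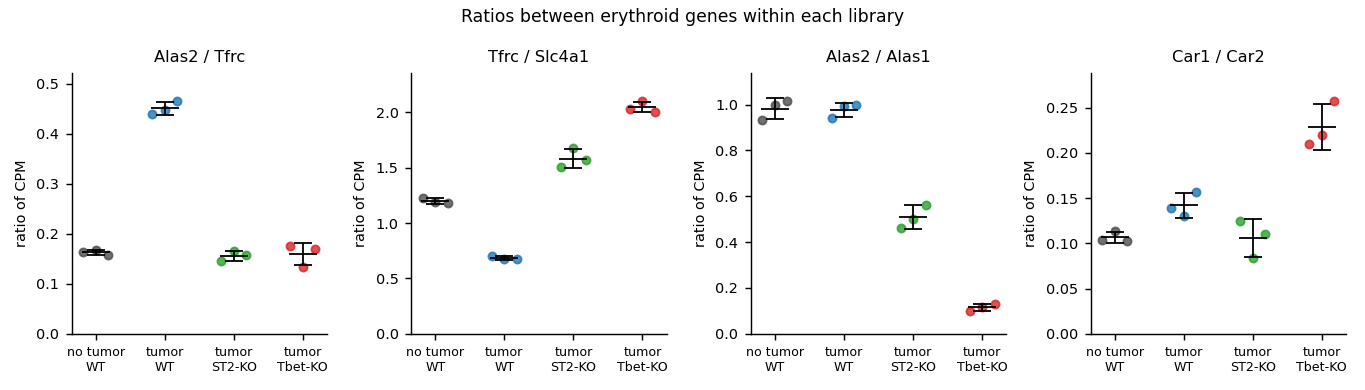
Each panel plots the ratio of the CPM of 2 genes within a library (y axis from 0, no unit) for the 4 groups on the x axis; points are the 3 libraries and bars the mean and SD. Alas2 over Tfrc averages 0.451 in tumor WT and at most 0.163 elsewhere, and Alas2 over Alas1 is 0.978 in tumor WT and 0.115 in Tbet-KO.

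The libraries labelled ST2-KO were set against tumor WT to ask what differed between the 2 labels. With TMM, Alas2 fell to 39.8% of tumor WT (log2 -1.33, SE 0.0597, adjusted p = 7.9e-34), Car1 to 43% (log2 -1.22, SE 0.121, adjusted p = 1.5e-14) and Slc4a1 to 49.8% (log2 -1.01, SE 0.0326, adjusted p = 1.9e-43). Ermap (log2 -0.83), Car2 (-0.80), Klf1 (-0.79) and Gata1 (-0.41) fell by less, and Tfrc rose 1.15-fold (log2 0.20, SE 0.0300, adjusted p = 3.5e-08). Epor did not pass (log2 -0.46, 95% interval -0.90 to -0.02). In all, 7 of 9 were lower, against 22.8% of all genes, and 1 was higher, against 23.1%. Beyond a log2 change of 1, 3 were lower (all genes 2.42%) and 0 higher (2.66%), and 9 of 9 did not overlap (50.8%). The call of Gata1 was lost when tumor WT library 2 or 3 or ST2-KO library 2 or 3 was left out, with adjusted p from 0.051 to 0.065.

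The direction of the ST2-KO comparison depended on the scaling. Relative to the 12 T cell genes, Gata1 (log2 0.57), Epor (0.51), Tfrc (1.18), Car2 (0.18) and Ermap (0.15) were higher with ST2-KO, Alas2 (-0.35) stayed lower, and Klf1 (0.18), Car1 (-0.24) and Slc4a1 (-0.03) did not pass. Of all genes 85.0% were higher on this scale and 0.602% lower. The median of the 9 was then 0.18, below the 0.97 of all genes, where with TMM it was -0.80 and 0.00.

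The libraries labelled Tbet-KO were compared with tumor WT in the same way, and all 9 genes fell. Slc4a1 fell to 17.3% of tumor WT (log2 -2.53, SE 0.0357, adjusted p = 4.9e-70), Alas2 to 18.3% (log2 -2.45, SE 0.0645, adjusted p = 5.2e-50) and Klf1 to 19.4% (log2 -2.37, SE 0.189, adjusted p = 5.8e-19). Ermap (log2 -2.14), Car2 (-2.09), Epor (-1.88), Car1 (-1.41) and Gata1 (-1.27) fell as well, and Tfrc fell least of the 9, to 51.8% (log2 -0.95, SE 0.0313, adjusted p = 5.1e-43). Thus 9 of 9 were lower, against 20.6% of all genes, 8 of them beyond a log2 change of 1, against 5.24%, and 9 of 9 did not overlap, against 51.4%. The median was -2.09, and 0.01 over all genes. On the T cell scale all 9 were lower too (all genes 31.3%), from -2.65 to -1.07, with -0.11 for all genes. In the same comparison 10 of 10 B cell genes were lower, and their part in the result was not tested.

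Against ST2-KO, the Tbet-KO libraries were lower in 8 of the 9 genes, where 27.4% of all genes were lower. Beyond a log2 change of 1 it was 7 genes, against 7.28%, and 8 did not overlap, against 56.4%. Klf1 (log2 -1.57, SE 0.201, adjusted p = 1.2e-10) and Slc4a1 (log2 -1.52, SE 0.0367, adjusted p = 3e-53) had the widest gaps. Car1 differed by log2 -0.19 (95% interval -0.45 to 0.07), and it was lower without ST2-KO library 2 (log2 -0.35, adjusted p = 0.023). On the T cell scale it was lower too (-1.29), but there the median of all genes was -1.09.

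Both KO groups were also set against no tumor WT, in comparisons added to the 4 the study names. With ST2-KO all 9 were lower, from log2 -1.03 (Klf1) to -0.49 (Tfrc), where 17.0% of all genes were lower, and 1 was beyond a log2 change of 1 (0.951%). With Tbet-KO all 9 were lower, from -2.61 (Klf1) to -0.91 (Car1), where 32.3% of all genes were lower and 31.9% higher, and 8 of the 9 were beyond 1 (9.56%). On the T cell scale all 9 were lower there as well, as were 87.3% of all genes. These share the no tumor libraries with each other and with the tumor WT comparison.

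**Figure D3:**
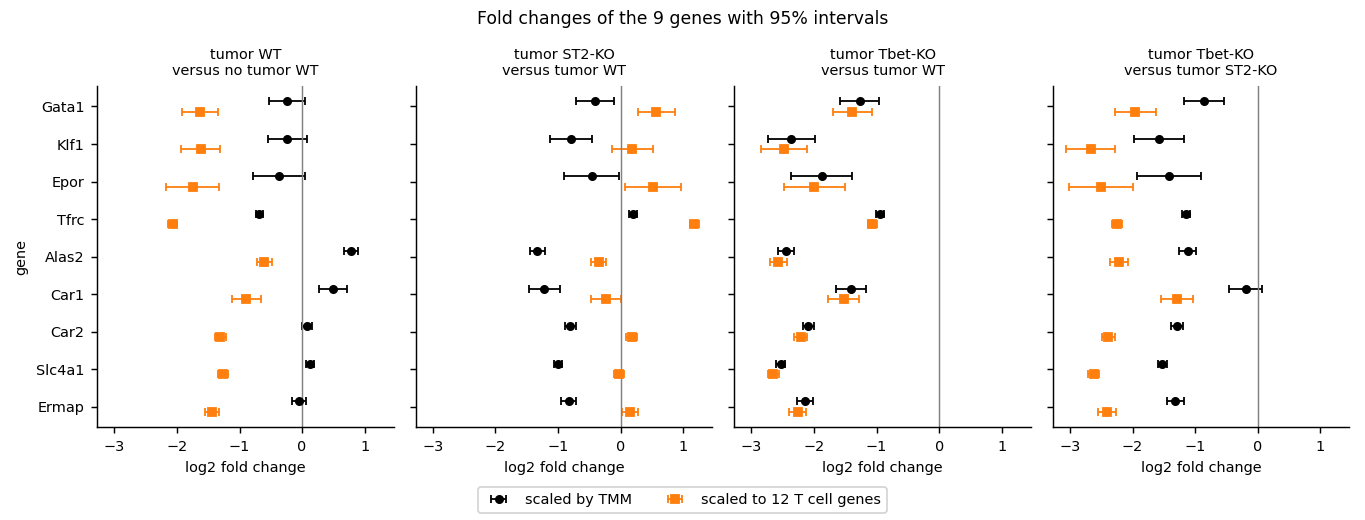
Log2 fold changes (x axis) of the 9 genes (y axis) in the 4 comparisons the study names, with 95% intervals, from edgeR with TMM scaling (black circles) and with scaling to 12 T cell genes (orange squares). In Tbet-KO against tumor WT every value lies between -2.65 and -0.95 on both scales; in ST2-KO against tumor WT, 5 genes change sign between the scales.

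Beside Slc4a1 and Ermap, 20 other genes of the red cell membrane and skeleton were tested. In Tbet-KO against tumor WT 18 were lower (all genes 20.6%) and 1 higher (all genes 18.1%), with a median of -2.14. Ank1, the ankyrin that ties band 3 to spectrin, averaged 145, 134, 70.8 and 27.9 CPM for no tumor WT, tumor WT, ST2-KO and Tbet-KO, in this order here and in the gene groups that follow. Sptb, erythroid beta spectrin, averaged 93.2, 81.8, 49.4 and 18.8 CPM. Both fell in Tbet-KO against tumor WT (Ank1 log2 -2.26, adjusted p = 2.6e-49, Sptb log2 -2.12, adjusted p = 5.1e-38). Epb4.1, protein 4.1, had the highest CPM of the other genes and nearly equal means in the KO groups, at 224, 332, 214 and 214 CPM. In ST2-KO against tumor WT 18 of the 20 were lower (22.8%) and 0 higher (23.1%) with TMM, but 2 lower (0.602%) and 9 higher (85.0%) on the T cell scale. In tumor WT against no tumor WT 3 were higher and 5 lower with TMM, below the 29.0% and 29.4% of all genes, and 19 were lower on the T cell scale, where 86.7% of all genes were.

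Of 11 other heme synthesis genes, 10 were lower (all genes 20.6%) and 1 higher (18.1%) in Tbet-KO than in tumor WT, and 10 were lower on the T cell scale too (31.3%). Fech, which inserts iron into the ring, averaged 93.9, 143, 62.1 and 60.7 CPM. Cpox, an enzyme of a later step of the pathway, averaged 108, 109, 75.1 and 42.3 CPM. The gene that rose was Alas1, the entry enzyme of all cells, at 97.2, 168, 129 and 262 CPM (log2 0.64, adjusted p = 1.7e-23). Alas2 relative to Alas1 was 0.982 ± 0.0450 for no tumor WT, 0.978 ± 0.0311 for tumor WT, 0.509 ± 0.0510 for ST2-KO and 0.115 ± 0.0165 for Tbet-KO. The ratio overlapped between both WT groups and was lower in every ST2-KO and Tbet-KO library. In ST2-KO against tumor WT 7 of the 11 were lower (22.8%) and 0 higher (23.1%) with TMM. On the T cell scale 9 were higher (85.0%) and 1 was lower (0.602%), which was Fech (log2 -0.23).

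**Figure D4:**
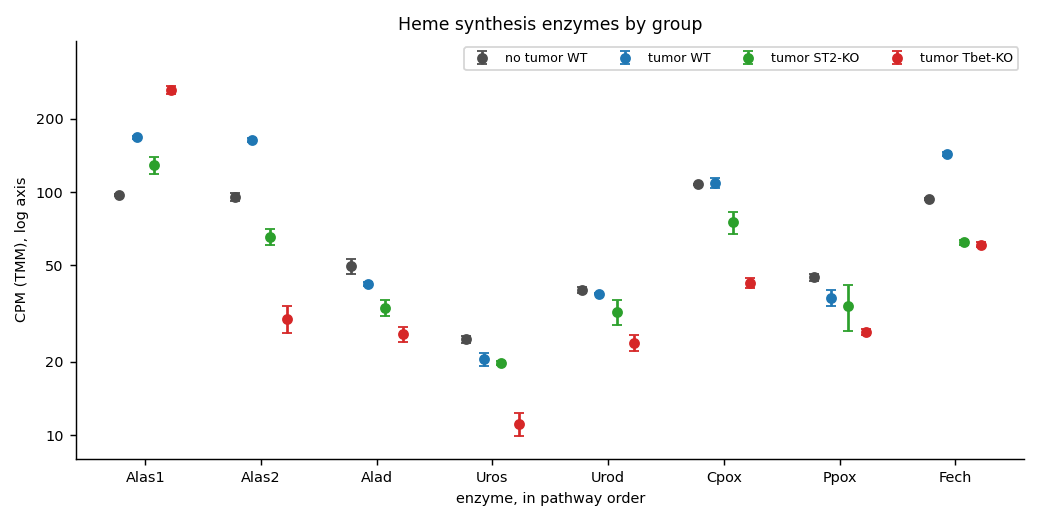
Mean CPM with SD (y axis, log axis) of 8 heme synthesis enzymes in pathway order (x axis), with 1 colour per group and n = 3 libraries each. Alas1 is highest in Tbet-KO, and Alas2 falls there to 30.1 CPM from 164 CPM in tumor WT.

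Of 12 other erythroid transcription factor genes, 6 were lower (all genes 20.6%) and 3 higher (18.1%) in Tbet-KO than in tumor WT, with a median of -0.27. Tal1, which works in a complex with Gata1, averaged 41.5, 38.9, 21.7 and 8.87 CPM (log2 -2.13, adjusted p = 4.6e-30), and Gfi1b, a repressor needed for red cell formation, 21.7, 17.7, 13.05 and 5.98 CPM (log2 -1.57, adjusted p = 2.4e-15). Lmo2, of the same complex as Tal1, was higher at 39.1, 80.7, 63.8 and 112 CPM (log2 0.47, adjusted p = 4e-10), as was Lyl1, a relative of Tal1, at 67.1, 57.1, 67.7 and 72.2 CPM (log2 0.34, adjusted p = 2.9e-05). Ldb1, which bridges that complex, stood at 99.4, 97.3, 98.4 and 94.3 CPM and did not pass with TMM (log2 -0.04, adjusted p = 0.59). Klf3 and Foxo3 were lower, at 55.3, 74.4, 54.6 and 54.5 CPM and 70.98, 72.7, 65.4 and 51.8 CPM. The highest of the list by CPM were E2f2 at 639, 269.8, 451 and 155 CPM, Zfpm1 (the Gata1 partner FOG1) at 278, 142, 198 and 68.3, Cbfa2t3 at 211, 82.2, 183 and 80.97 and Nfe2 at 82.4, 122, 75.02 and 115 CPM. E2f2 and Zfpm1 had the order of groups seen in Tfrc and fell from tumor WT to Tbet-KO, while Cbfa2t3 (log2 -0.02, adjusted p = 0.78) and Nfe2 (log2 -0.09, adjusted p = 0.15) did not pass with TMM. Ldb1 (log2 -0.16), Cbfa2t3 (-0.14) and Nfe2 (-0.21) were lower on the T cell scale. On that scale 31.3% of all genes were lower, and the median of all genes was -0.11. With Gata2, given above, these are all 12 genes of the list, of which those beyond the 4 highest by CPM were named after their values were seen.

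Of 11 other genes of erythropoietin signalling, 5 were lower (all genes 20.6%) and 2 higher (18.1%) in the same comparison, with a median of -0.04. The kinase Lyn averaged 369, 246, 342 and 183 CPM and Jak2, the kinase bound to Epor, 153, 268, 176 and 261 CPM. Pim1 averaged 205, 209.5, 193 and 167 CPM and the transcription factor Stat5b 139, 159, 143 and 156 CPM. These genes are used by many blood cells.

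Beside Tfrc, 15 other genes of iron uptake and handling gave 8 lower (all genes 20.6%) and 1 higher (18.1%) in Tbet-KO against tumor WT, median -0.35. The ferritin chains Ftl1 and Fth1, which store iron, averaged 428, 903, 759.8 and 619 CPM and 450.03, 778, 581 and 499 CPM. Slc40a1, the exporter ferroportin, averaged 163, 325, 267 and 222 CPM, and the iron chaperone Pcbp2 527, 581, 481 and 511 CPM. With TMM, ferritin and Slc40a1 were highest in tumor WT, where Tfrc was below no tumor WT, but on the T cell scale all 15 genes fell from no tumor WT to tumor WT, as did 86.7% of all genes. Macrophages make ferritin and Slc40a1 too, and the 17 genes of the monocyte and macrophage list summed to 2205, 3703, 2723 and 2771 CPM; their part was not tested.

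Of 10 genes of late maturation, 7 were lower (all genes 20.6%) and 2 higher (18.1%) in Tbet-KO than in tumor WT, with a median of -1.01. The exportin Xpo7 averaged 240.1, 259, 229.6 and 169 CPM, and Bnip3l, which clears mitochondria from reticulocytes, 126, 168, 129 and 143 CPM. The genes that rose were Cited2 at 76.3, 104, 87.6 and 140.5 CPM and Alox15, also a gene of eosinophils, at 71.9, 41.7, 41.5 and 92.98 CPM. Among 7 other carbonic anhydrase genes 4 were higher (18.1%) and 2 lower (20.6%). Car13 and Car3 fell with Car2, at 21.8, 16.2, 16.96 and 4.42 CPM and 4.82, 12.02, 7.72 and 4.88 CPM, and Car5b, the mitochondrial form, rose, at 2.64, 5.59, 2.77 and 14.1 CPM. Car12, at 3.15, 5.95, 3.40 and 8.82 CPM, passed with TMM and lost the call under several alternatives.

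Of the 11 symbols of the globin and chaperone list, only Hbb-y, an embryonic beta globin of the mouse, was matched in the deposited count table. No adult globin symbol of the list was matched, so adult globins were not analysed here. Hbb-y had 0, 2 and 1 reads in the no tumor WT libraries, 548, 501 and 438 with tumor WT, 231, 279 and 259 with ST2-KO and 228, 254 and 202 with Tbet-KO. Relative to no tumor WT, where 3 reads were counted in all, the ratio was 491 (168 to 2390) for tumor WT, 297 (101 to 1450) for ST2-KO and 234 (79.6 to 1140) for Tbet-KO, with the exact 95% interval of the counting error in parentheses. Hbb-y was thus near 0 without tumor, unlike each of the 9 genes. From tumor WT to Tbet-KO it fell by 1.07 on the log2 scale. Globin genes have closely related copies, and how the counting split reads between them is uncertain.

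Likeness between genes was measured as Pearson's r of log2 CPM over 12 libraries, as a description with no test, since libraries of a group share their level. Among the 36 pairs of the 9 genes r ran from 0.494 to 0.999, with a median of 0.927. With the group means removed it ran from -0.774 to 0.676, with a median of -0.02, so the likeness lay between groups. The genes nearest to Slc4a1 were Car2 (0.999), Epb4.2 (0.997) and Hemgn (0.996), and to Car2 Slc4a1 (0.999), Hemgn (0.996) and Epb4.2 (0.996). Ermap was nearest to Ank1 (0.996), Hemgn (0.996) and Car2 (0.995), and Klf1 to Tspan33 (0.992), Hist3h2ba (0.988) and Ank1 (0.978). Epb4.2 (protein 4.2), Ank1 and Dmtn (dematin) belong to the membrane skeleton, and Hemgn is a nuclear protein of red cell precursors. Epor was nearest to Dmtn (0.986), Gfi1b (0.985) and Hist1h2bb (0.984), and Gata1 to Hist1h2bn (0.993), Samd14 (0.989) and Nedd9 (0.988). Tfrc was nearest to Pde4b (0.998), Lgals9 (0.996) and Elovl6 (0.996), Alas2 to Hist1h2bh (0.992), Hist1h2bm (0.982) and H2-Aa (0.981) and Car1 to Tgfbi (0.963), Lrg1 (0.957) and Spire1 (0.957).

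The 18 cell cycle genes summed to 7611 ± 114 CPM for no tumor WT, 5599 ± 24.6 for tumor WT, 6017 ± 132 for ST2-KO and 4575 ± 54.9 for Tbet-KO, the order of groups of Tfrc. In Tbet-KO against tumor WT 10 of the 18 were lower (all genes 20.6%) and none higher (18.1%), with a median of -0.16, a smaller shift than that of the 9 genes. The part of dividing cells in the erythroid values was not tested.

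**Figure D5:**
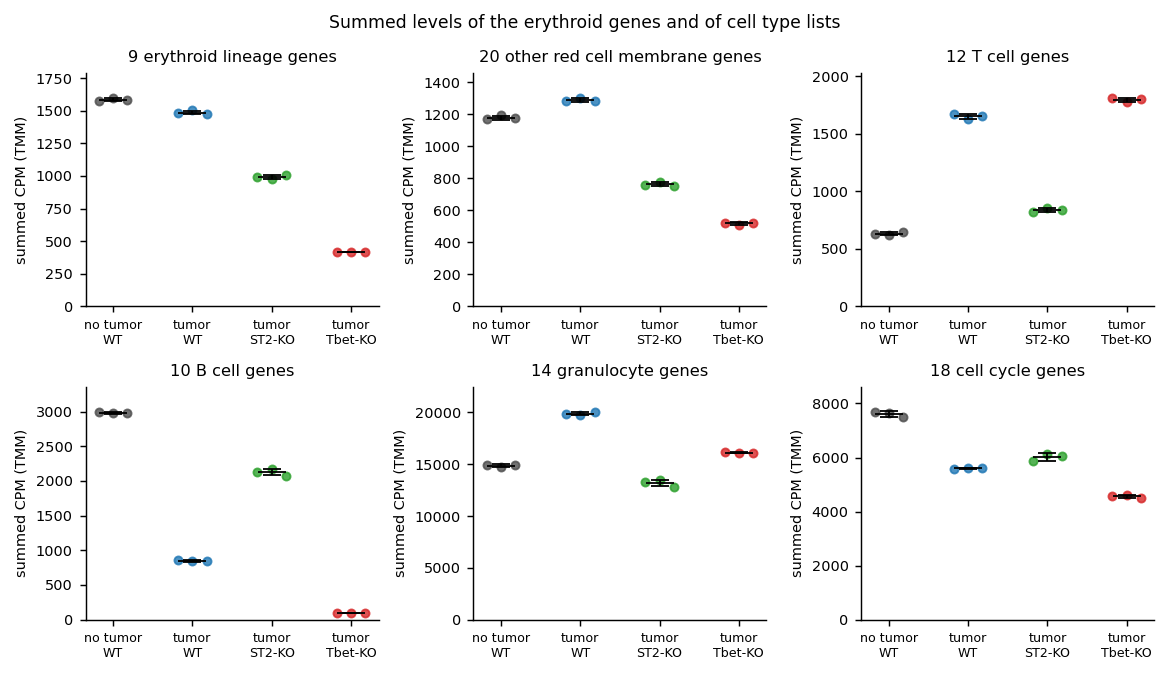
Summed CPM (y axis from 0) of the 9 erythroid genes and of 5 fixed lists in the 4 groups (x axis); points are the 3 libraries, bars the mean and SD. The erythroid genes and the 20 membrane genes (518 CPM) are lowest in Tbet-KO, as are the B cell and cell cycle lists, while the T cell genes are highest there.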

How the data were processed

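RNA was depleted of ribosomal RNA, and the authors aligned reads to mm10 with STAR and counted them per UCSC refGene gene with featureCounts (strand setting not given in the sources used here). The deposited table holds raw counts. The deposited log2 FPKM values were recomputed as TMM-scaled log2 CPM with a prior count of 2 minus 1 constant per gene, which gave gene lengths. Groups came from sample titles. Counts were tested in R 4.3.3 with edgeR 4.0.16: filterByExpr (477 genes left out), TMM, 1 quasi-likelihood fit of 12 libraries, and Benjamini-Hochberg adjustment over 13782 genes (calls at 0.05). The biological coefficient of variation was 5.53%. The code was tested on simulated data. Alternatives used limma 3.58.1, DESeq2 1.42.0, other scalings and filters, a replicate block, and each library left out.

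The 9 genes and all lists were chosen with earlier results of these data known. Named were the 9 genes, up to 4 tested genes of a list by mean CPM, Hbb-y and the 3 nearest genes by correlation. Some genes that this rule names are not reported here. Intervals on read ratios cover counting error only.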

Additional observations from a re-analysis of the deposited data

How the results depend on the processing

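Each of 54 log2 fold changes (9 genes, 6 comparisons) was recomputed under the alternatives. Apart from the scaling to T cell genes, 826 of 837 values kept their direction and side of the threshold, 0 reversed, 4 lost the call (Gata1 in ST2-KO against tumor WT) and 7 gained it, among them Car2 in tumor WT against no tumor WT with DESeq2 (adjusted p = 0.047) and without the ST2-KO libraries (0.033), the last chosen after seeing the data. Scaled to T cell genes, tumor WT against no tumor WT had 9 calls in place of 4, and Alas2 (log2 -0.60), Car1 (-0.89), Car2 (-1.30) and Slc4a1 (-1.26) reversed. In ST2-KO against tumor WT, Gata1 (0.57), Klf1 (0.18), Epor (0.51), Car2 (0.18), Ermap (0.15) and Hbb-y (0.32) reversed. With a log2 change beyond 1 also required, calls were 0 in place of 4 for tumor WT against no tumor WT, 3 in place of 8 for ST2-KO against tumor WT, and 1 in place of 9 for ST2-KO against no tumor WT. With each library left out, calls ran from 7 to 8 for ST2-KO against tumor WT and from 8 to 9 for Tbet-KO against ST2-KO, and stayed at 4 for tumor WT against no tumor WT and at 9 elsewhere. Replicate numbers did not pair the libraries (correlations of deviations -0.02 to 0.02 over 18 same-numbered pairs), and with the replicate block the 6 comparisons kept 4, 8, 9, 8, 9 and 9 calls. Depth limits Epor, Klf1 and Gata1 most.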

Other observations

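Megakaryocytes share Gata1 with red cells. The 14 tested genes of their list summed to 48.7 ± 3.46 CPM for no tumor WT, 79.3 ± 0.940 for tumor WT, 58.6 ± 1.70 for ST2-KO and 56.1 ± 4.74 for Tbet-KO (SD, n = 3 each). Against tumor WT, 3 were lower in ST2-KO (all genes 22.8%) and 5 in Tbet-KO (all genes 20.6%, median of the list -0.58), and none was higher in either with TMM, but on the T cell scale 7 were higher in ST2-KO (all genes 85.0%). Against no tumor WT, 2 were higher (all genes 31.9%) and none lower (32.3%) in Tbet-KO with TMM. Ppbp, a platelet chemokine, averaged 9.36, 22.3, 14.99 and 9.38 CPM and Itga2b, a platelet integrin, 11.9, 10.1, 9.53 and 12.5 CPM over the 4 groups. On the T cell scale 11 of the 14 were lower in Tbet-KO than in no tumor WT (all genes 87.3%).

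The sum of the eosinophil, basophil and mast cell list, whose lineages also use Gata1, was highest with Tbet-KO after TMM. On the T cell scale 8 of the 9 genes of the list were lower in Tbet-KO than in no tumor WT (all genes 87.3%). Its 9 genes summed to 729 ± 9.96 CPM for no tumor WT, 518 ± 5.93 for tumor WT, 455 ± 16.5 for ST2-KO and 1332 ± 23.8 for Tbet-KO. Prg2, the eosinophil major basic protein, averaged 338, 209, 218 and 617 CPM and Epx, eosinophil peroxidase, 295, 171, 146 and 578 CPM, so both were highest where Gata1 was lowest. Prg2 and Epx made up most of each sum, so the sums describe these eosinophil genes more than the whole list. Of the 9 genes 4 were higher (18.1%) and 2 lower (20.6%) in Tbet-KO than in tumor WT, with a median of 0.27.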
